A study of Mus musculus with 12 samples.

Results

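The Cyp2c genes encode cytochrome P450 enzymes of the 2C subfamily, and 10 of them were followed here in mouse liver. They were chosen by name, as Cyp2c29, Cyp2c37, Cyp2c38, Cyp2c39, Cyp2c40, Cyp2c50, Cyp2c54, Cyp2c69, Cyp2c70 and Cyp2c44, among the 57180 genes of the deposited tables. Cyp2c44 is listed there under its other symbol, Cyp2c23, which is used below. All 10 genes passed the filter on low counts and were tested among 19350 genes. The tables hold 11 further rows whose names start with Cyp2c, and these are described as paralogs where they bear on the 10.

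Cytochrome P450 enzymes of this kind sit in the endoplasmic reticulum, carry heme and insert an oxygen atom into drugs, steroids, retinoids and fatty acids, with electrons passed on by P450 oxidoreductase (Por). Mouse Cyp2c enzymes include epoxygenases and hydroxylases of arachidonic acid, and Cyp2c70 converts chenodeoxycholic acid to the muricholic acids that set mouse bile apart from human bile. In mouse liver several Cyp2c genes are known to be more active in females, and this sex difference depends on the pulsed growth hormone of males, which acts through the transcription factor STAT5b and is sharpened by the repressors CUX2 in females and BCL6 in males.

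Livers of 12 mice were sequenced, 3 in each of 4 groups, which are KO females, KO males, Het females and Het males. Every mouse lacked Csa, also called Ercc8, a gene of transcription-coupled DNA repair, and every mouse had received the AAV9-CSA vector, a human CSA cDNA under a ubiquitous promoter, into the brain ventricles as a newborn. The Het mice carried the genotype Csa-/- Xpa+/- and were littermates matched in age to the KO mice, which were taken at the humane endpoint. The genotype of the KO group is written as Csa-/- Xpa+/+ in the series' own text and in the paper's RNA-seq methods. The paper's results describe these animals as CX mice, which lack Xpa as well, so the groups are called by the names KO and Het throughout. Xpa RNA was lower in KO than in Het livers of both sexes, as given below. Ages are not given in the labels. Single livers are named by group and mouse number, such as Het_M_125. KO and Het differ in the state of the animals at death as well as in genotype, and these cannot be told apart here.

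Between 30044812 and 43634073 counts were assigned to genes per liver. Xpa, a factor of DNA damage recognition, stood at 3.10 to 3.74 CPM (counts scaled by library size with TMM factors) in Het females against 0.992 to 1.83 in KO females, and at 5.57 to 6.34 in Het males against 1.14 to 1.25 in KO males, and it was lower in KO in both sexes (log2 fold change -1.38 ± 0.23 in females and -2.28 ± 0.23 in males, adjusted p = 0.00568 and 3.1e-04). The 8 hepatocyte markers (Alb, Apoa1 and others) were present in every liver. Cyp2c65, known from the intestine, reached 5 counts at most, and Cyp2c66 was at 0 in all 12 livers. In bulk RNA, fewer cells of a type and less RNA per cell cannot be told apart.

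Of the 10 genes, 9 lie in a cluster on chromosome 19 of GRCm39, between position 39257849, where Cyp2c29 begins, and position 40175777, where Cyp2c70 begins on the reverse strand. Cyp2c23 stands apart on the same chromosome, from 43993451 to 44017653 on the reverse strand. All 10 are protein coding with 9 exons in the GENCODE M39 annotation. Each count sums the transcripts of its gene. The members the results turn on lie side by side, with Cyp2c38 at chr19:39378000-39451547 (reverse strand), Cyp2c39 at chr19:39499306-39558011 (forward), Cyp2c40 at chr19:39754292-39801258 (reverse) and Cyp2c69 at chr19:39831103-39875243 (reverse), and the paralogs Cyp2c67 and Cyp2c68 lie between Cyp2c39 and Cyp2c40.

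The cluster holds groups of close copies. The coding sequence of Cyp2c40 was 98.1% identical to that of Cyp2c68 and 97.9% identical to that of Cyp2c69, and Cyp2c67 was 97.7% identical to Cyp2c40. In a further group, Cyp2c37 was 96.1% identical to Cyp2c50, and Cyp2c54 was 95.2% identical to Cyp2c50. Cyp2c38 and Cyp2c39 shared 94.2% of their coding bases, and Cyp2c29 was 89.5% identical to Cyp2c39. Cyp2c70 and Cyp2c23 had no close copy, with at most 69.5% and 66.5% identity to any other Cyp2c gene.

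**Figure D1:**
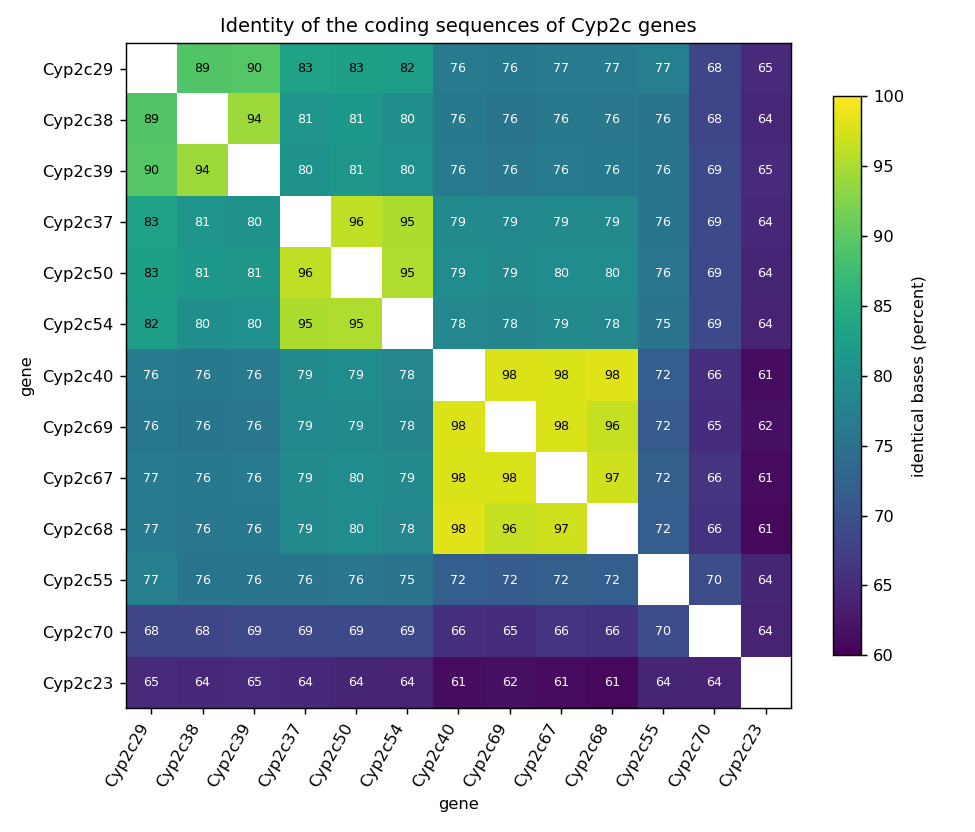
Each cell gives the identity of the coding sequences of a pair of Cyp2c genes, in percent of aligned bases (both axes list the genes). Cyp2c40, Cyp2c69, Cyp2c67 and Cyp2c68 form the tightest block, Cyp2c37, Cyp2c50 and Cyp2c54 a further block, and Cyp2c70 and Cyp2c23 stand alone.

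How far reads can separate these copies was measured as the share of windows of 150 bases, about the length of a read, in a transcript that are found unchanged in another Cyp2c transcript. That share was 22.5% for Cyp2c69, 16.8% for Cyp2c40, 13.0% for Cyp2c67 and 8.53% for Cyp2c68. It was 3.08% for Cyp2c50, 1.68% for Cyp2c54 and 0.298% for Cyp2c37, and 0 for Cyp2c29, Cyp2c38, Cyp2c39, Cyp2c70 and Cyp2c23. The estimated counts of Cyp2c37, Cyp2c40, Cyp2c50, Cyp2c54, Cyp2c67 and Cyp2c68 were not whole numbers in any of the 12 libraries, and those of Cyp2c69 in 11, as estimates are where reads match several transcripts. Those of Cyp2c38 were not whole in 10 libraries, of Cyp2c39 in 9, of Cyp2c29 in 8, of Cyp2c70 in 4 and of Cyp2c23 in 2. Values of close copies are therefore uncertain one against another, and sums over the copies are given below.

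Promoters of the Cyp2c40 group and of Cyp2c70 are shown because Cyp2c40 and Cyp2c69 differed most widely between the sexes, Cyp2c70 was the most abundant member in KO livers, and all of these windows hold the same motif. The windows are RefSeq promoters (GRCm38.p6), with the bases inside the annotated gene left out, and their positions in GRCm39 come from an exact match. They run 5′ to 3′ along the gene, on the reverse strand of the chromosome in each case. Capitals mark the sequence CAAAGTCCA, a binding motif of HNF4 (a nuclear receptor of hepatocytes).
Cyp2c40, chr19:39801259-39801508: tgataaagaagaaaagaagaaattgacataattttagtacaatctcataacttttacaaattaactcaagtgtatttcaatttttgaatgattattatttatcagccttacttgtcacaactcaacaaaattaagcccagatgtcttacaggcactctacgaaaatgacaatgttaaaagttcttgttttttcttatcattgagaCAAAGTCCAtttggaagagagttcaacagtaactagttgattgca
Cyp2c69, chr19:39875244-39875463: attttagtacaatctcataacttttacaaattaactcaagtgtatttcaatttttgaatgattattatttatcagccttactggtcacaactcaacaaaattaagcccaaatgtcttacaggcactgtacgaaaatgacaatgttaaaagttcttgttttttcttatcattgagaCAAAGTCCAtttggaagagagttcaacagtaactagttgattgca
Cyp2c68, chr19:39729554-39729795: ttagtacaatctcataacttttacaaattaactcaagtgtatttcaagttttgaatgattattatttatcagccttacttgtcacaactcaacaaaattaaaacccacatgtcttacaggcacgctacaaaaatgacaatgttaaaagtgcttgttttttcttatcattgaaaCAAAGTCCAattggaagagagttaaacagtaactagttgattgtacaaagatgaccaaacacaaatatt
Cyp2c67, chr19:39637501-39637736: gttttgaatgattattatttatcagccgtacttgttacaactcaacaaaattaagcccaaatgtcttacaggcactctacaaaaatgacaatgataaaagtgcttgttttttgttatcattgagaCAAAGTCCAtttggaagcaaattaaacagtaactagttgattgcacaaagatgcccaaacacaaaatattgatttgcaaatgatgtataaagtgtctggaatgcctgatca
Cyp2c70, chr19:40175778-40175980: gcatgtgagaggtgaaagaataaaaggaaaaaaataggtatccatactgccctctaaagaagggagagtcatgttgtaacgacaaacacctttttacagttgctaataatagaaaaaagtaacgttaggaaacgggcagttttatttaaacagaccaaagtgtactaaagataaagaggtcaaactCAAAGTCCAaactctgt

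In the 250 bases before the RefSeq start, CAAAGTCCA was present on either strand in Cyp2c40, Cyp2c69, Cyp2c67, Cyp2c68 and Cyp2c70, and in the intestinal paralog Cyp2c65. The same 9 letters were found in 0.384% of 32851 mouse promoter windows of that length. They were absent from the windows of Cyp2c29, Cyp2c37, Cyp2c38, Cyp2c39, Cyp2c50, Cyp2c55 and Cyp2c66. Of these, Cyp2c37, Cyp2c38 and Cyp2c39 differed between the sexes in Het livers, whereas Cyp2c67 and Cyp2c70, which hold the motif, were not called. Cyp2c40, Cyp2c69, Cyp2c67 and Cyp2c68 are close copies, so their matches are not independent. A link of the motif to the sex difference was not tested. A C/EBP motif (TTNNGCAAT, either strand) was found in Cyp2c67, Cyp2c69 and Cyp2c37, against 1.93% of all windows. The Cyp2c40 window ends inside the stretch that holds this match in Cyp2c69, so its lack of a match does not show a difference between these copies. In Cyp2c69 the match runs past the end of the printed bases. A TATA box (TATAAA, forward strand) was found in Cyp2c29, Cyp2c38 and the paralogs Cyp2c67, Cyp2c55, Cyp2c65 and Cyp2c66, against 7.59% of all windows. The STAT5 motif (TTCNNNGAA, either strand) was in no Cyp2c window, against 7.02% of all windows. Aligned as whole windows of 250 bases, Cyp2c68 and Cyp2c69 were 91.3% identical, and Cyp2c40 and Cyp2c69 77.5%. Each window ends at the RefSeq start of its own gene, and those of Cyp2c40 and Cyp2c69 are shifted against each other. Their unmatched ends lower the second value, so these values do not rank the copies by how far their promoters differ. The table held no promoter for Cyp2c54 or Cyp2c23. These matches describe the letters in the windows.

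Levels of different genes were compared as TPM, which accounts for transcript length. The 10 genes together came to 1964 ± 244 TPM in Het females and 1308 ± 360 in KO females (SD, n = 3), and to 1113 ± 109 in Het males and 1421 ± 98.9 in KO males. Het females spanned 1773 to 2239 TPM and lay above all other livers, and the KO females spanned 980.5 to 1693. The Het males, at 989.7 to 1198 TPM, lay below the KO males, at 1327 to 1524.

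Cyp2c29, an epoxygenase of arachidonic acid, was the most abundant member in both Het groups, at 425 ± 158 TPM in Het females and 353 ± 72.0 in Het males. In Het females its livers overlapped those of Cyp2c37, the next in order, and each of the first 8 genes overlapped its neighbor. In KO livers the order changed at the top, with Cyp2c70 first at 313 ± 57.6 TPM in KO females and 322 ± 21.5 in KO males. Cyp2c70 overlapped the second gene in both KO groups, Cyp2c29 in females and Cyp2c50 in males. Its share of the summed TPM was 9.62% ± 0.62 in Het females against 24.3% ± 2.2 in KO females, and 13.8% ± 5.5 in Het males against 22.7% ± 0.11 in KO males. Cyp2c39 was the least abundant member in each group, at 3.66 TPM in Het females, 6.23 in KO females and 4.23 in KO males on average, and in Het males it lay level with Cyp2c69, at 0.327 and 0.329 TPM.

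**Figure D2:**
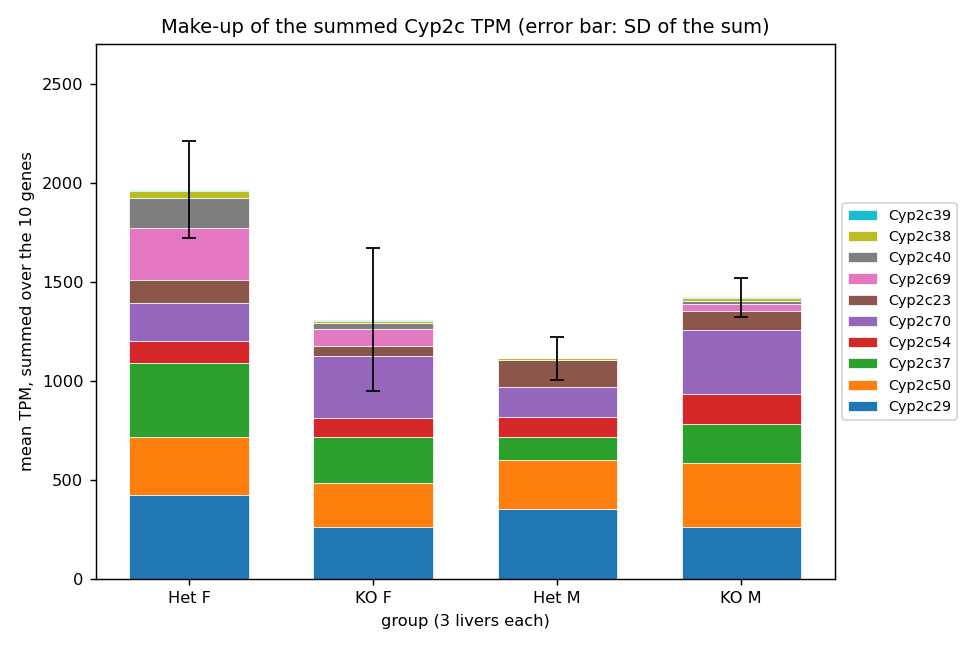
Stacked bars give the mean TPM of each of the 10 genes in the 4 groups of 3 livers, and the error bar is the SD of the sum. Cyp2c40 and Cyp2c69 make up a visible part of the bar in Het females, a small part in KO livers of both sexes and almost none in Het males, while the part of Cyp2c70 is wider in the KO groups than in the Het groups.

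The first question was which Cyp2c genes differed between KO and Het livers within each sex. In females, 1 of the 10 was called lower (Cyp2c38) and 0 higher, where 11.0% of all tested genes passed in either direction, with 5.94% higher and 5.10% lower. In males, 3 of the 10 were called higher (Cyp2c39, Cyp2c40 and Cyp2c69) and 0 lower, where 7.45% passed in either direction, with 4.47% higher and 2.98% lower. The median log2 fold change of the 10 was -0.62 in females and 0.79 in males, against 0.0053 and 0.019 over all tested genes. A gene was called at an adjusted p below 0.05 in the quasi-likelihood test of edgeR, with p-values adjusted over all tested genes by the Benjamini-Hochberg method, and 5608 genes in females and 4657 in males had an unadjusted p below that value.

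**Figure D3:**
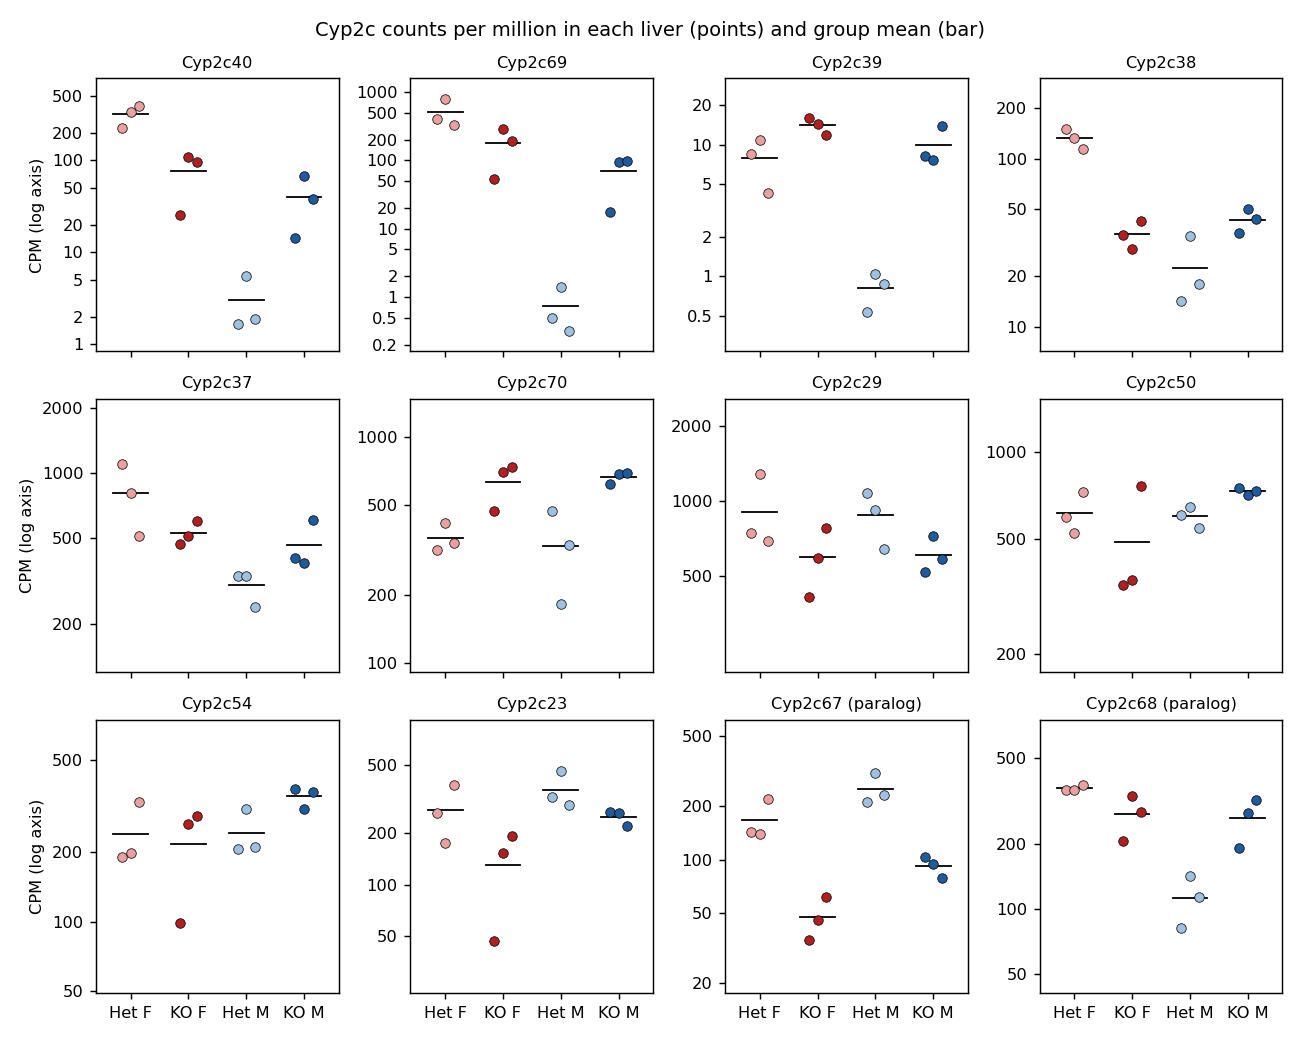
Each point is the level of a Cyp2c gene in a liver, in CPM on a log axis, and the bar is the mean of the group (3 livers each, Het F, KO F, Het M, KO M). The Het males lie far below the other groups for Cyp2c40, Cyp2c69 and Cyp2c39, and in KO males these genes lie near the KO females.

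Cyp2c69, a P450 of the Cyp2c40 group, had the widest range. Its level was 400, 788 and 334 CPM in the Het females and 0.50, 1.40 and 0.320 CPM in the Het males, the latter resting on 10 to 43 counts. The KO males held 17.5, 95.0 and 96.3 CPM and the KO females 52.6, 283 and 194. Each KO male thus lay above each Het male and each KO female below each Het female. In males the gene rose by a log2 fold change of 6.45 ± 0.97 (SE), or 87.5-fold (adjusted p = 0.00510). In females the log2 fold change was -1.52 ± 0.75 (adjusted p = 0.211), with a 95% interval from -3.20 to 0.15. Leaving out Het_M_125, which had the highest level of its group, moved the value in males to 7.22.

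Cyp2c40, which forms hydroxylated products of arachidonic acid, followed the same order of groups. It stood at 228, 337 and 390 CPM in Het females and 25.6, 110 and 95.5 in KO females, and at 1.67, 5.53 and 1.89 in Het males and 14.4, 68.5 and 37.8 in KO males. The KO males did not overlap the Het males, and the KO females lay below the Het females. In males it rose by 3.71 ± 0.75 on the log2 scale, or 13.1-fold (adjusted p = 0.0184). This call was lost without Het_M_119 (adjusted p = 0.0662) or Het_M_137 (adjusted p = 0.0667), and the log2 fold change was 4.45 without Het_M_125 and 3.08 without KO_M_122. In females the log2 fold change was -2.05 ± 0.68, or 4.13-fold lower in KO, with an adjusted p of 0.0818 and a 95% interval from -3.57 to -0.52, and it was called lower in females by DESeq2 (adjusted p = 0.00703) and by limma on log2(TPM + 1) (adjusted p = 0.0271).

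Cyp2c39, known as a retinoic acid hydroxylase, was at 8.57, 10.8 and 4.26 CPM in Het females and 0.534, 1.04 and 0.864 in Het males. It was at 16.0, 14.3 and 11.9 CPM in KO females and 8.17, 7.72 and 13.8 in KO males, so the KO livers lay above the Het livers of their own sex. In males it rose 11.4-fold, by 3.51 ± 0.38 on the log2 scale (adjusted p = 4.5e-04). In females the log2 fold change was 0.83 ± 0.33 (adjusted p = 0.117). Over the mean of both sexes it rose by 2.17 ± 0.25 (adjusted p = 2.5e-04).

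Cyp2c38, the closest relative of Cyp2c39, fell in females. Its level was 151, 133 and 114 CPM in Het females and 35.0, 28.9 and 42.4 in KO females, a log2 fold change of -1.90 ± 0.29, or 3.73-fold lower in KO (adjusted p = 0.00473). In males it was at 14.2, 34.9 and 17.9 CPM in Het and 36.0, 50.1 and 44 in KO, with no overlap of the groups. The log2 fold change in males was 0.95 ± 0.29 (adjusted p = 0.0675), and without Het_M_125 it was 1.43 and the gene was called. The KO livers of both sexes, at 28.9 to 50.1 CPM, thus lay between the Het females and 2 of the 3 Het males.

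Cyp2c37, which oxidizes arachidonic acid, was at 1100, 805 and 512 CPM in Het females and 466, 511 and 596 in KO females, and these groups overlapped. In Het males it was at 332, 333 and 238 CPM and in KO males at 404, 383 and 604, which did not overlap. The log2 fold change was -0.62 ± 0.27 in females (adjusted p = 0.148) and 0.62 ± 0.27 in males (adjusted p = 0.179), and it was called in neither sex. Over the mean of both sexes it was 0.0011 ± 0.19.

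Cyp2c70, the muricholic acid enzyme, was higher in every KO liver than in every Het liver of its own sex. Its level was 317, 418 and 341 CPM in Het females and 471, 701 and 738 in KO females. In males it was 472, 182 and 334 CPM in Het and 622, 689 and 698 in KO. The log2 fold change was 0.83 ± 0.29 in females (adjusted p = 0.0808) and 1.02 ± 0.29 in males (adjusted p = 0.0512), and over the mean of both sexes the gene rose by 0.93 ± 0.20, or 1.90-fold (adjusted p = 0.00797). DESeq2 called it within each sex as well (adjusted p = 0.0371 in females and 0.0105 in males). The difference between the sexes' effects was 0.20 ± 0.40 (adjusted p = 0.903), with a 95% interval from -0.68 to 1.07.

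Cyp2c29, Cyp2c50 and Cyp2c54, which also oxidize arachidonic acid, were not called by edgeR in any comparison of the 12 livers. Cyp2c29 was at 741, 1280 and 686 CPM in Het females and 409, 589 and 779 in KO females, and at 1070, 918 and 638 in Het males and 516, 719 and 583 in KO males. Its log2 fold change was -0.61 ± 0.29 in females and -0.53 ± 0.29 in males, and the groups overlapped in both sexes. Over both sexes it was -0.57 ± 0.21 (adjusted p = 0.0689), and DESeq2 called it lower (adjusted p = 0.0381). Cyp2c50 was at 524 to 722 CPM in Het females, 544 to 644 in Het males and 707 to 751 in KO males, whereas the KO females held 345, 359 and 759. Without KO_F_123, which carried the value of 759, Cyp2c50 was called lower in females at a log2 fold change of -0.81, against -0.33 ± 0.26 with it. Cyp2c54 was at 190 to 329 CPM in Het females and 207 to 306 in Het males, and at 98.2, 265 and 287 in KO females and 373, 306 and 365 in KO males. The 95% intervals of the KO effect on Cyp2c54 ran from -0.91 to 0.63 in females and from -0.24 to 1.30 in males.

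Cyp2c23, an epoxygenase outside the cluster, was at 264, 176 and 382 CPM in Het females and 46.6, 154 and 193 in KO females. It was at 326, 460 and 292 CPM in Het males and 266, 262 and 220 in KO males, where the groups did not overlap. Its log2 fold change was -1.06 ± 0.43 in females (adjusted p = 0.133), -0.53 ± 0.43 in males (adjusted p = 0.502) and -0.80 ± 0.31 over the mean of both sexes (adjusted p = 0.0856), where DESeq2 called it lower (adjusted p = 0.0334). KO_F_108 held the lowest level of its group for Cyp2c23, Cyp2c54, Cyp2c40, Cyp2c69, Cyp2c29, Cyp2c37, Cyp2c50 and Cyp2c70, and the highest for Cyp2c39.

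Groups that did not overlap in level were counted as a description. In females 3 of the 10 genes were lower in each KO liver than in each Het liver and 2 were higher, where 30.4% of all tested genes did not overlap in either direction, 15.8% higher and 14.7% lower. In males 7 were higher and 1 was lower, where 32.1% did not overlap, 16.8% higher and 15.4% lower. Over the mean of both sexes 3 of the 10 were called, all higher (Cyp2c39, Cyp2c69 and Cyp2c70), where 22.4% of the tested genes were called in either direction, 12.2% higher and 10.2% lower. A count of 3 among 10 does not set the family apart from that background. Cyp2c69 was not called over both sexes by limma on log2(TPM + 1) (1.29, adjusted p = 0.0792) or in an additive model (2.19, adjusted p = 0.505).

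**Figure D4:**
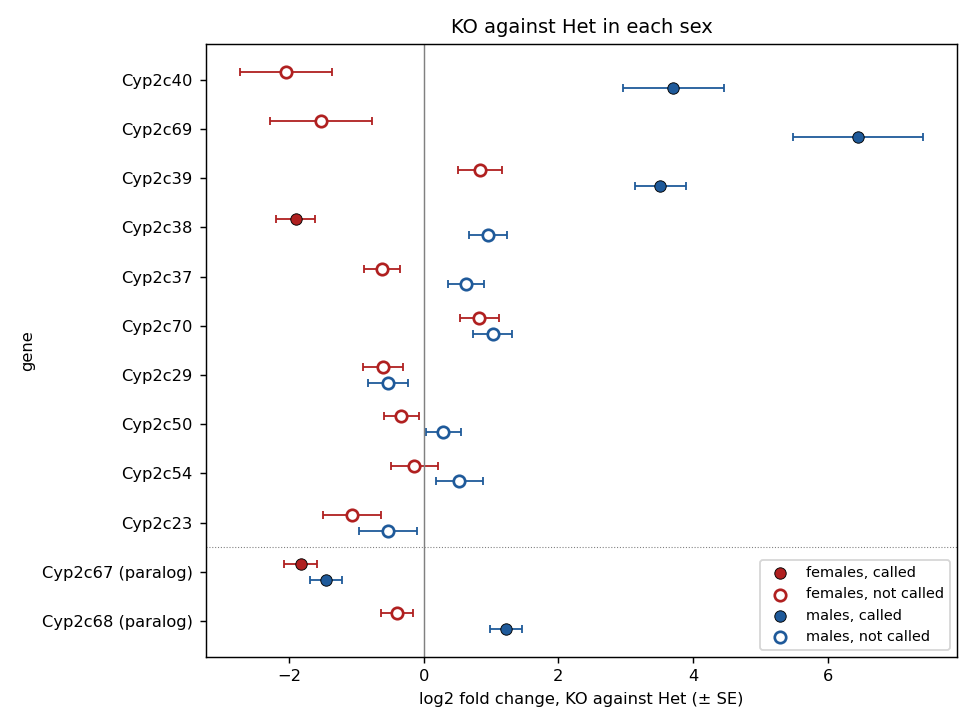
Points give the log2 fold change between KO and Het livers (x axis) in females and in males for each Cyp2c gene, with the SE as bar, filled where the gene was called and open where not. For Cyp2c40, Cyp2c69 and Cyp2c38 the female value lies below 0 and the male value above 0, while Cyp2c70 lies above 0 and Cyp2c67 below 0 in both sexes.

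The next question was whether the sex difference of the Cyp2c genes was the same in both genotypes. In Het livers 5 of the 10 genes were called lower in males than in females (Cyp2c37, Cyp2c38, Cyp2c39, Cyp2c40 and Cyp2c69) and 0 higher, where 0.920% of all tested genes were called and 0.460% lower. The log2 difference of males from females in Het was -9.32 ± 1.08 for Cyp2c69 (adjusted p = 0.00290) and -6.69 ± 0.85 for Cyp2c40 (adjusted p = 0.00497), or 638-fold and 103-fold lower in males. It was -3.19 ± 0.37 for Cyp2c39 (adjusted p = 0.00153), -2.57 ± 0.30 for Cyp2c38 (adjusted p = 0.00169) and -1.42 ± 0.27 for Cyp2c37 (adjusted p = 0.0305). Without Het_M_125 the values were -10.1 for Cyp2c69 and -7.46 for Cyp2c40. The call of Cyp2c37 was lost without Het_F_111, Het_F_115, Het_M_119, Het_M_125, Het_M_137 or KO_F_112, and in a fit of the 6 Het livers alone. Cyp2c29, Cyp2c50, Cyp2c54, Cyp2c70 and Cyp2c23 had log2 differences of -0.12 to 0.39 between Het males and females, with no call.

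In KO livers 0 of the 10 genes were called between males and females by edgeR, and 0 by DESeq2, where 0.0517% of all tested genes were called by edgeR and 2.02% by DESeq2, and 2445 had an unadjusted p below 0.05 in edgeR. The log2 difference of males from females in KO was -1.34 ± 0.75 for Cyp2c69, with a 95% interval from -3.01 to 0.33, and -0.94 ± 0.67 for Cyp2c40, from -2.42 to 0.55. It was -0.51 ± 0.33 for Cyp2c39, 0.29 ± 0.28 for Cyp2c38 and -0.18 ± 0.27 for Cyp2c37. The livers of KO males and KO females overlapped for these 5 genes. Cyp2c54 and Cyp2c23 were higher in each KO male than in each KO female, where 17.6% of all tested genes did not overlap and 9.11% were higher in males, with log2 differences of 0.68 ± 0.35 (adjusted p = 0.447) and 0.93 ± 0.43 (adjusted p = 0.410). Without KO_F_123, Cyp2c50 was called higher in KO males, at 1.04.

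**Figure D5:**
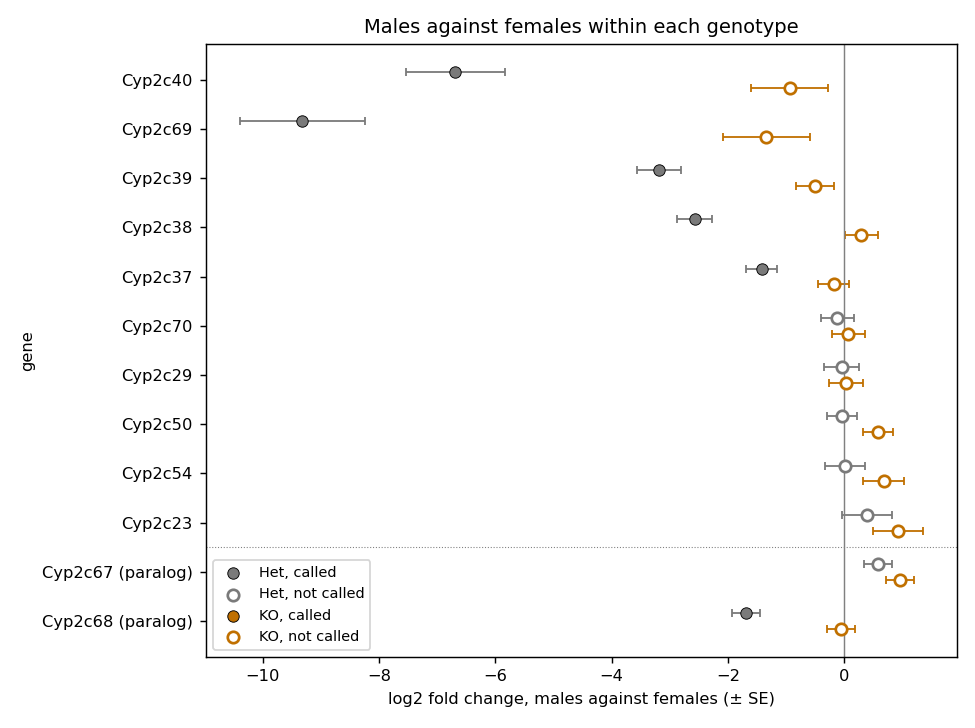
Points give the log2 difference of males from females (x axis) within Het and within KO livers for the 10 genes and the paralogs Cyp2c67 and Cyp2c68, with the SE as bar, filled where called and open where not. In Het livers Cyp2c69, Cyp2c40, Cyp2c39, Cyp2c38 and Cyp2c37 lie well below 0, and in KO livers these 12 genes lie between -1.34 and 0.96.

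The change of the sex difference with genotype was tested as an interaction, the log2 fold change of KO in males less the one in females. It was called for 1 of the 10, Cyp2c38, at 2.86 ± 0.41 on the log2 scale (adjusted p = 0.0431), where 0.0465% of all tested genes were called and 0.0362% in this direction. The value was larger for Cyp2c69 (7.98 ± 1.21, adjusted p = 0.0655) and Cyp2c40 (5.75 ± 1.01, adjusted p = 0.103) and similar for Cyp2c39 (2.68 ± 0.48, adjusted p = 0.0867), and these missed the threshold. For Cyp2c37 it was 1.24 ± 0.38 (adjusted p = 0.421). DESeq2 called 4 of the 10 for the same term, where it called 1.02% of all genes with an adjusted p, and limma on log2(TPM + 1) called 3, where it called 0.222%. The call of Cyp2c38 was lost in 10 of the 12 fits that each left out 1 liver, at log2 values of 2.62 to 2.97, and it remained without Het_M_125 or KO_F_123. The comparisons of KO with Het in males and of males with females in Het use the same 3 Het males, which held the lowest levels of these genes, so they are not independent of each other.

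Among the paralogs, 5 of 11 rows were tested. Cyp2c67 fell in both sexes, from 143, 139 and 221 CPM in Het females to 35.1, 45.5 and 61.1 in KO females (log2 fold change -1.83 ± 0.24, adjusted p = 0.00230), and from 211, 309 and 232 in Het males to 103, 93.8 and 78.8 in KO males (-1.45 ± 0.24, adjusted p = 0.00512). Cyp2c68 rose in males, from 81.8, 143 and 114 CPM in Het to 193, 280 and 319 in KO (1.23 ± 0.24, adjusted p = 0.0123), and it was lower in Het males than in Het females (-1.69 ± 0.24, adjusted p = 0.00528). In females Cyp2c68 was at 356, 357 and 377 CPM in Het and 206, 335 and 283 in KO (adjusted p = 0.283). Cyp2c55 was at 1.21 to 9.84 CPM and was not called. One of the 2 rows named Cyp2c53-ps, whose annotated span overlaps that of Cyp2c29, was at 352, 25 and 37 counts in Het males, 1 count in each KO male and 4 counts or fewer in the females, and it was called lower in KO males. The pseudogene Cyp2c52-ps was called higher in KO males on 8 counts or fewer in any liver, at 1, 1 and 0 counts in Het males and 8, 8 and 7 in KO males.

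Since reads of the Cyp2c40 group can be split among its copies, their levels were also summed. Cyp2c40 and Cyp2c69 together came to 826 ± 264 CPM in Het females and 253 ± 160 in KO females, and to 3.77 ± 2.74 in Het males and 110 ± 69.0 in KO males. With Cyp2c67 and Cyp2c68 added, the sums in the same order were 1357 ± 249, 575 ± 233, 368 ± 83.6 and 466 ± 119.2 CPM. In CPM the mean sum of the 4 copies was 1.27 times as high in KO males as in Het males, whereas that of Cyp2c40 and Cyp2c69 was 29.1 times as high, and in TPM these ratios were 1.36 and 32.6. In females the sum of the 4 copies was 2.36-fold lower in KO than in Het in CPM and 2.54-fold lower in TPM. The wide difference in males was thus seen in Cyp2c40 with Cyp2c69 and not in the sum of the 4 copies, which also holds the fall of Cyp2c67. The sum of Cyp2c37, Cyp2c50 and Cyp2c54 was 1658 ± 198 CPM in Het females and 1229 ± 375 in KO females, and 1139.5 ± 146 in Het males and 1542 ± 153 in KO males.

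The 10 genes did not vary together across the 12 livers. Pearson's r of log2 CPM was 0.974 for Cyp2c40 and Cyp2c69, the closest pair, and 0.813 for Cyp2c37 and Cyp2c40, whereas Cyp2c23 and Cyp2c39 had an r of -0.624 and Cyp2c40 and Cyp2c50 an r of 0.0028. Cyp2c50, Cyp2c54 and Cyp2c23 formed a further set, with r from 0.704 to 0.743. The livers share library preparation and fall into 4 groups, so these values are descriptions. Outside the family, the gene most like Cyp2c40 and Cyp2c69 over the 12 livers was Slc22a27, an organic anion transporter gene, with r of 0.969 and 0.979. The closest gene was Slc16a5 for Cyp2c39 (r = 0.984), Acsm5 for Cyp2c23 (r = 0.977), Ptcd3 for Cyp2c29 (r = 0.958), Neurl1a for Cyp2c70 (r = 0.936), Gm6135 for Cyp2c38 (r = 0.935), Mpp1 for Cyp2c54 (r = 0.931), Tlr12 for Cyp2c50 (r = 0.927) and Pcp4l1 for Cyp2c37 (r = 0.918).

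Other sex-biased liver genes were read from lists. Calls between KO and Het in this and the later lists are to be read against the whole set of 19350 genes. Of that set, 4.47% passed upward and 2.98% downward in males, against 5.94% upward and 5.10% downward in females. Of 13 female-biased genes outside Cyp2c, 10 were called higher in KO males than in Het males and 0 lower, and in KO females 0 were called higher and 2 lower. Cyp2a4, a steroid hydroxylase, rose in males by 9.98 ± 0.49 on the log2 scale (adjusted p = 3.0e-06). Of 10 male-biased genes, 8 were called lower in KO males and 0 higher, and in KO females 4 were called lower and 1 higher. Ugt2b38, a glucuronosyltransferase, fell by 7.69 ± 0.66 on the log2 scale in males and Cyp7b1, an oxysterol hydroxylase, by 2.92 ± 0.34. The summed TPM of the female-biased list was 471 to 2389 in Het females and 1464 to 2156 in KO females. In Het males it was 1.85 to 3.87 and in KO males 365 to 644. KO males thus lay far above Het males and overlapped the lower part of the range of the Het females. Each KO male lay below each KO female in this sum. In Het livers 10 of the 13 were called lower in males than in females, where 0.460% of all tested genes were called lower. In KO livers 0 of the 13 were called, where 0.0517% of all tested genes were called in either direction. The median log2 difference of males from females over the list was -8.60 in Het and -2.26 in KO. The lack of calls in KO therefore does not show that the sex difference was gone.

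Of 10 genes of growth hormone signaling and its sex-biased repressors, 3 were called higher and 2 lower in KO males, and 1 higher and 0 lower in KO females. Cux2, the female-biased repressor, rose by 5.65 ± 0.59 in males, and Bcl6, the male-biased repressor, fell by 3.30 ± 0.72. Ghr, the growth hormone receptor, fell by 1.64 ± 0.43 in males and had a log2 fold change of -1.15 in females (adjusted p = 0.102). Stat5b rose by 0.56 ± 0.14 in females (adjusted p = 0.0259), and in males its mean was 56.7 ± 4.5 CPM in Het and 77.5 ± 7.0 in KO (SD). Socs2, a further gene of the list, had higher means in KO livers of both sexes. They were 17.8 ± 11.5 CPM in Het males and 95.5 ± 35.3 in KO males, and 30.2 ± 25.3 and 90.7 ± 7.0 in females, where it was not called. Whether growth hormone signaling acts on the Cyp2c genes here was not tested.

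Lists of hepatocyte transcription factors and of nuclear and xenobiotic receptors were then read. Whether they act on the Cyp2c genes here was not tested. Of 9 hepatocyte transcription factors, 2 were called lower in males and 1 in females, and 0 higher. Cebpa (C/EBP alpha) fell by 1.09 ± 0.21 in females and by 1.12 ± 0.21 in males, and Foxa1 fell by 1.31 ± 0.32 in males. Hnf4a had log2 fold changes of 0.20 in females and -0.33 in males, with no call. Of 8 xenobiotic and metabolic receptors, 2 were called lower in each sex, Nr1h4 (the bile acid receptor FXR) by 1.17 in females and 0.88 in males and Ppara by 1.51 and 1.22. Nr1i3 (CAR) and Nr1i2 (PXR), which induce Cyp2c29 and other P450 genes, were not called, with log2 fold changes of -0.65 and -0.10 in females and 0.04 and -0.30 in males. Of 8 target genes of CAR and PXR, 3 were called higher and 1 lower in males (Gstm3, Slco1a4 and Ugt1a1 higher, Ces2a lower), and 0 higher and 1 lower in females (Ces2a). Among those not called in males, Cyp2b10 had means of 11.4 ± 14.6 CPM in Het and 5.20 ± 2.65 in KO (SD). Cyp3a11 had 3915 ± 1353 and 2657 ± 903, Abcc3 477 ± 89.3 and 418 ± 107, and Gstm1 649 ± 92.4 and 1111 ± 301. The list thus did not move in 1 direction.

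Partners and pathways of the enzymes were read the same way. Of 12 genes for P450 partners and heme synthesis, 1 was called higher (Por, 1.20 ± 0.33) and 1 lower (Cyb5b, a cytochrome b5, -1.33 ± 0.29) in females, and 0 were called in males. With background shares of 5.94% upward and 5.10% downward in females, 1 call among 12 genes does not set a list apart. Of 9 genes around arachidonic acid epoxides 8 were tested, with 3 called lower in males and 1 in females. Ephx2, the soluble hydrolase of these epoxides, fell by 1.28 ± 0.20 in males, and the epoxygenase Cyp2j5 fell by 1.70 in females and 1.21 in males. Of 18 genes of bile acid synthesis, its control and bile acid transport, 2 were called higher and 7 lower in females, and 2 higher and 4 lower in males. Cyp39a1 rose by 1.49 in females and 2.23 in males and Scp2 fell by 1.01 and 1.27, and Cyp7a1, the first enzyme of the main pathway, was not called (-0.83 ± 0.71 and 0.98 ± 0.71). Of 12 pericentral genes 2 were called lower in females and 1 in males, and of 12 periportal genes 1 was called higher in females and 0 in males.

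Markers of other cell types also moved between the groups. The summed TPM of the 8 hepatocyte markers was 36409 to 40123 in Het females and 39753 to 58433 in KO females, and 24186 to 32119 in Het males and 36746 to 48833 in KO males, and 1 of the 8 (Ttr) was called lower in females. That of 6 Kupffer cell markers was 81.8 to 102, 118.3 to 168, 31.2 to 43.8 and 52.7 to 146 in the same order, with 2 of the 6 called higher in males (Marco and Vsig4) and 0 in females. That of 6 stellate cell markers was 85.2 to 94.9 in Het females and 38.4 to 42.8 in KO females, with 3 called lower in females and 2 in males, and that of 5 endothelial markers was 50.4 to 63.7 and 29.0 to 32.1 in these groups, with 2 called lower in females. No marker of these 4 lists was at 0 TPM in all livers of a group. Of 5 small intestine markers, which include Cyp2c65 and Cyp2c66, 2 (Cyp2c66 and Sis) were at 0 in all 12 livers, and the summed TPM was 24.9 to 43.0 in Het livers and 6.29 to 20.6 in KO livers, with Fabp2 called lower in females. Of 4 pancreas markers 2 (Prss2 and Cpa1) were at 0 in all 12 livers, the sum was 1.65 TPM at most, and Cela2a, the only marker of them that was tested, was called higher in both sexes. Cholangiocyte, lymphocyte and neutrophil markers gave 0 calls in either sex, and erythroid markers gave 1 call, Alas2, lower in males. The part of these cell types in the Cyp2c results was not tested.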

How the data were processed

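Livers of 12 mice were profiled by total RNA sequencing after ribosomal RNA depletion, with paired stranded reads. The authors aligned reads to GRCm39 with GENCODE M34 using STAR 2.7.9a and Salmon 1.10.1 in the nf-core pipeline, and deposited estimated counts per gene. The authors also deposited TPM values from the same Salmon estimates. Salmon shares reads that match several transcripts among them, which bears on close Cyp2c copies.

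Samples were grouped by the sex and genotype in their labels. Estimated counts (12.0% not whole) were rounded and tested in edgeR 4.0.16 (R 4.3.3) with TMM scaling (factors 0.885 to 1.06) and the quasi-likelihood test, in 1 fit of the 4 groups. Genes needed 5 reads, scaled to the median library, in at least 3 livers. Adjusted p is Benjamini-Hochberg over all 19350 tested genes, SE is the log2 fold change over the root of F, and the prior count was 2. CPM was computed from the deposited counts over TMM-scaled library sizes. Libraries of 1 group differed by more than sampling noise (chi-square per degree of freedom at least 86.8), so none was counted as a duplicate. Total counts of 30044812 to 43634073 per liver set the counting error.

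Alternatives were DESeq2 1.42.0, limma 3.58.1 on log2(TPM + 1) and log2(TPM + 0.1), other scalings, no filter, length-scaled counts, other models and leaving out each mouse. The older quasi-likelihood method of edgeR and the sums of copies were chosen after seeing the data. The fits were tested on simulated data. The members, gene lists and tests were chosen with earlier results of these data known, and all 10 members, the other Cyp2c rows and genes of the lists are named. Protein sequences were not used here, so identity was computed on coding sequences of GENCODE M39 with Biopython 1.88. Promoters came from RefSeq (8 of 10 members matched). Some genes and motifs of the lists are not reported here.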

Additional observations from a re-analysis of the deposited data

Results flagged for a closer look

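Cyp2c38 was singled out because the KO effect differed between the sexes by a test of the difference itself. The log2 fold change of KO in males less the one in females was 2.86 ± 0.41 (edgeR's quasi-likelihood test, adjusted p = 0.0431), from -1.90 in females and 0.95 in males. All 3 KO females lay below the Het females and all 3 KO males above the Het males. Without 1 liver at a time the value ranged from 2.62 to 3.34 and the adjusted p from 0.00102 to 0.141.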

How the results depend on the processing

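Leaving out 1 mouse at a time, 1 to 2 of the 10 genes were called in females, 2 to 4 in males, 3 to 5 over both sexes, 0 to 1 for the difference between the sexes' effects, 4 to 5 between Het males and females and 0 to 1 between KO males and females. DESeq2 called 3, 5, 5 and 4 for the first 4 of these, while it called 17.4%, 12.2%, 26.1% and 1.02% of all genes with an adjusted p (11.0%, 7.45%, 22.4% and 0.0465% in edgeR). limma on log2(TPM + 1) called 2 in females and 3 for the difference (9.49% and 0.222% of all genes), and limma on log2(TPM + 0.1) called 2 in females, 5 in males and 3 for the difference (9.62%, 6.05% and 0.171%). The cause was not tested. Of 530 values of single genes under other alternatives, 500 kept their direction and side of the threshold, and 8 reversed. For Cyp2c37 over both sexes the value was -0.0022 with relative log expression scaling, -0.00051 with library size only, -0.0021 in DESeq2 and -0.0088 with length-scaled counts. For Cyp2c54 between Het males and females it was -0.10 with library size only, -0.00015 without a filter and -0.17 in limma with either pseudocount (-0.17 and -0.17). With 1 mouse left out, the sign turned for values near 0. For Cyp2c29 the range was -0.26 to 0.33 for the difference between the sexes' effects, -0.23 to 0.28 in Het and -0.18 to 0.27 in KO. For Cyp2c37 over both sexes it was -0.13 to 0.13. For Cyp2c50 it was -0.27 to 0.068 over both sexes and -0.15 to 0.074 in Het. For Cyp2c54 it was -0.41 to 0.19 for KO in females and -0.22 to 0.30 in Het. For Cyp2c70 it was -0.085 to 0.56 for the difference, -0.49 to 0.15 in Het and -0.11 to 0.18 in KO. No paired analysis was possible, because the labels give mouse numbers that no groups share and do not name the litter. Litters that KO and Het mice may share could therefore not be taken into account.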
